A study of Mus musculus with 12 samples.

Results

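The genes described here are 9 genes of fibroblast growth factor (FGF) signalling and of the feedback on its ERK cascade: the ligand gene Fgf4, the receptor genes Fgfr1 and Fgfr2, the feedback inhibitor genes Spry2, Spry4 and Dusp6, and the transcription factor genes Etv1, Etv4 and Etv5. They were taken by name from the 26218 gene rows of the deposited table, and all 9 had a row. The 12 libraries, made by sequencing the 3′ ends of mouse RNA, form 6 groups of 2. The culture groups are primordial germ cell-like cells (PGCLCs), made from C57BL/6 embryonic stem cells that carry the Blimp1-mVenus and Stella-ECFP reporters. After 4 days of induction they were sorted, grown for 3, 5 or 7 days on m220 stromal feeder cells (d4c3, d4c5 and d4c7) and sorted again. The labels call the cells BVSC+ and the protocol names a sort on BV fluorescence. The embryonic groups are primordial germ cells of embryonic day (E) 9.5 and, from E12.5, germ cells of each sex. They carry a Stella-EGFP reporter on a background given as ICR:C57BL/6=1:1, and were sorted on that reporter. Libraries were amplified from 10 ng of RNA in the culture groups and from 1 ng in the embryonic groups. Culture and embryo therefore cannot be told apart from strain, reporter, sort and RNA input.

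An FGF ligand bound to its receptor and to heparan sulphate activates a relay of adaptor proteins, RAS, RAF, MEK and the kinase ERK. Active ERK induces genes that shut the relay down again, among them the Sprouty proteins, which act on its upper part, and the phosphatase Dusp6, which removes phosphate from ERK in the cytoplasm. It also induces the ETS transcription factors of the PEA3 family, encoded by Etv1, Etv4 and Etv5, so the RNA of these genes is widely used as a readout of the pathway. The culture protocol in the labels acts on this pathway at several steps. Stem cells were kept with 0.4 µM of PD0325901, an inhibitor of MEK. The epiblast-like step contained bFGF, an FGF ligand, at 12 ng/ml. The induction medium contained epidermal growth factor at 50 ng/ml and stem cell factor at 100 ng/ml, both of which signal through other receptor tyrosine kinases. It also contained BMP4 at 500 ng/ml. The medium of the later expansion is not given in the sources used here.

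Values are RPM, read numbers scaled to a fixed total of reads in genes. Depth, estimated from the smallest step of the values, ran from 2219175 to 5817990 reads per library, so that 3 reads, the limit that a value of 0 allows, correspond to 0.517 to 1.36 RPM. Tests were made with limma on log2(RPM + 1) over 10856 genes, and a gene was called at an adjusted p under 0.05. A change is given on that scale as log2 with its standard error (SE), which understates changes of low genes. Whether replicates are separate cultures or animals is not labelled. If they are not separate, p-values set a difference against a spread that leaves out variation between cultures or animals. All 10 germ cell markers of a list were above 0 in every group, with a summed level of 2629 to 7660 RPM over the libraries. The list holds Dppa3 (Stella) and Prdm1 (Blimp1), the genes of the reporters described above. Where cells were sorted on a reporter, its gene is no independent check of them. Dppa3 alone stood at 4770 and 4846 RPM in E12.5 males and at 1332 and 1310 RPM in d4c3. The E9.5 libraries also held RNA of other cells. Of 9 blood and endothelial markers, 8 were above 0 at E9.5, with a sum of 3861 to 4339 RPM and Cdh5 at 0. The same sum was 48.3 to 89.6 RPM in culture, 101 to 128 RPM in E12.5 males and 160 to 167 RPM in E12.5 females. At E12.5 Gata1, Cdh5, Kdr and Tal1 were at 0 in both sexes. Outside E9.5 nearly all of that sum was Pecam1, at 91.6 and 113 RPM in males and 151 and 148 RPM in females. Of 12 fibroblast and stromal markers, all were above 0 at E9.5, with a sum of 718 to 745 RPM, against 218 to 511 RPM in culture, 337 to 379 RPM in males and 394 to 396 RPM in females. Fn1 and Vim made up most of that sum, and single markers differed in direction. Col3a1 stood at 61.0 and 66.0 RPM at E9.5 but also at 39.7 RPM in d4c5 replicate 1, where Dcn stood at 39.7 RPM too, against at most 2.36 RPM in any embryonic library. Pdgfrb lay between 5.48 and 7.68 RPM in culture, at 7.35 and 6.60 RPM at E9.5 and at 0 at E12.5. Dcn (1.96 ± 0.53, adjusted p = 0.00607) and Pdgfrb (1.94 ± 0.19, adjusted p = 1.78e-06) were higher in culture than in embryo as a whole. Of 8 tested stromal markers 2 were higher in culture and 3 lower, where 27.7% and 26.8% of all genes were. Pdgfra was among the lower ones (-1.31 ± 0.28, adjusted p = 0.0014). The median over the 8 was -0.41, beside -0.01 over all genes. Testing needed 5 RPM in at least 2 libraries, which Dcn reached only through d4c5 and d4c7 and Pdgfra only through E9.5. Each could be tested only as a gene high there. The part of RNA from feeder or other stromal cells in the differences between culture and embryo was not tested. The 6 somatic mesoderm markers summed to 19.2 to 21.1 RPM at E9.5, while no other library exceeded 6.07 RPM. In bulk RNA, fewer cells of a type and less RNA per cell cannot be told apart.

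The DNA around the starts of Fgf4, Fgfr2, Etv1 and Etv5 is shown first. They were chosen with the values known: Fgf4 for its level in d4c7, Fgfr2 and Etv5 for standing higher in every culture library than in any embryonic one, and Etv1 for its level in E12.5 males. PEA3-family factors bind sites built on the core GGAA. RefSeq promoter windows of GRCm38.p6 hold 250 bases before and 50 after each start, and 6 of the 9 genes were matched. Windows are printed 5′ to 3′ on the strand of the gene, and capitals mark AGGAAG, a PEA3-type site, or its reverse complement CTTCCT. Fgf4 lies on the plus strand, window chr7:144861136-144861435. Fgfr2 lies on the minus strand, chr7:130266759-130267058. Etv1 has 2 starts on the plus strand, chr12:38779832-38780131 and chr12:38783461-38783760. Etv5 has 2 starts on the minus strand, chr16:22439521-22439820 and chr16:22438319-22438618.
Fgf4: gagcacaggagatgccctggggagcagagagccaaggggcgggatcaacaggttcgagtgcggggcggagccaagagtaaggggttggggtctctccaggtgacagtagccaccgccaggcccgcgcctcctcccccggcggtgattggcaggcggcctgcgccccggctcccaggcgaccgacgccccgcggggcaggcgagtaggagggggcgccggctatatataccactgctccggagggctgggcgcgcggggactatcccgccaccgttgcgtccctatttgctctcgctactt
Fgfr2: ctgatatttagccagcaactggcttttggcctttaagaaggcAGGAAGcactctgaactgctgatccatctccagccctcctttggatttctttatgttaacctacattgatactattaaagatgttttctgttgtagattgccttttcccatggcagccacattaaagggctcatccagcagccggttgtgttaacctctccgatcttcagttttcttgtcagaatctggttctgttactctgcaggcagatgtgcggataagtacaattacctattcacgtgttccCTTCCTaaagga
Etv1, first start: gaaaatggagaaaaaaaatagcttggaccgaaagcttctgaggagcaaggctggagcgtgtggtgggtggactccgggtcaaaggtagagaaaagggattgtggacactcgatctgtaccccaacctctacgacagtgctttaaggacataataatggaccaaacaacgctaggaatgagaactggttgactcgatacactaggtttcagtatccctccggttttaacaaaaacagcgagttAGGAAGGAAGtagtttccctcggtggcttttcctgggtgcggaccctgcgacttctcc
Etv1, second start: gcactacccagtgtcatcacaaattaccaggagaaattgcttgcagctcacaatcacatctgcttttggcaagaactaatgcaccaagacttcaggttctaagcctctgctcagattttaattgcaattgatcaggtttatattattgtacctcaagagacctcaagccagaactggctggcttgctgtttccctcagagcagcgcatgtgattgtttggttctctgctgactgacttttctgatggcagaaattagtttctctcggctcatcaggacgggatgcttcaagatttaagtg
Etv5, first start: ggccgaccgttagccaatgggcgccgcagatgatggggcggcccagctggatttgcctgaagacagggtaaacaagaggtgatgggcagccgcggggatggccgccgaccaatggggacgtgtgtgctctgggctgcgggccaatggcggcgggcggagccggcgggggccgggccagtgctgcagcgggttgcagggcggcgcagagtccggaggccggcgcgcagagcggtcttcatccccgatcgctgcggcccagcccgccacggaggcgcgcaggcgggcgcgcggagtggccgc
Etv5, second start: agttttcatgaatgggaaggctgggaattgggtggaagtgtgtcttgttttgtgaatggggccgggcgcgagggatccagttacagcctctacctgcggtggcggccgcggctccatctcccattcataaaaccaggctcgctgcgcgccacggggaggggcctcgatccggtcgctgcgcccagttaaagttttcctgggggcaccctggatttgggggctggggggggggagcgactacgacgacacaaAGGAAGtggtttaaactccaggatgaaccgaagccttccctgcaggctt

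The Fgfr2 window held AGGAAG 2 times, once on each strand, and the first Etv1 window held 2 overlapping copies, AGGAAGGAAG. The second Etv5 window held 1 copy, and the windows of Fgf4, of the second Etv1 start and of the first Etv5 start held none. Of the windows not printed, that of Dusp6 held 1 copy and that of Spry2 held none. AGGAAG on either strand was present in 35.4% of all 32851 RefSeq windows of this length. CCGGAA, a second ETS-type site searched on both strands with its reverse complement TTCCGG, was present in 14.9% of them and, among these genes, in that of Spry2. Such a match describes letters in a window and not a bound site.

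Across the 6 groups the genes fell into a few patterns. Fgf4 RNA was close to 0 in d4c3, was higher at each later culture group and was at 0 or 1 read in the embryonic libraries. Fgfr2 and Etv5 RNA was higher in every culture library than in every embryonic library, and Etv4 RNA was lower. Etv1 RNA stood far above all other groups in E12.5 males. For Spry2, Spry4, Dusp6 and Fgfr1 the ratio between the highest and lowest group means was 1.37 to 2.57, and for Etv5 it was 1.94.

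**Figure D1:**
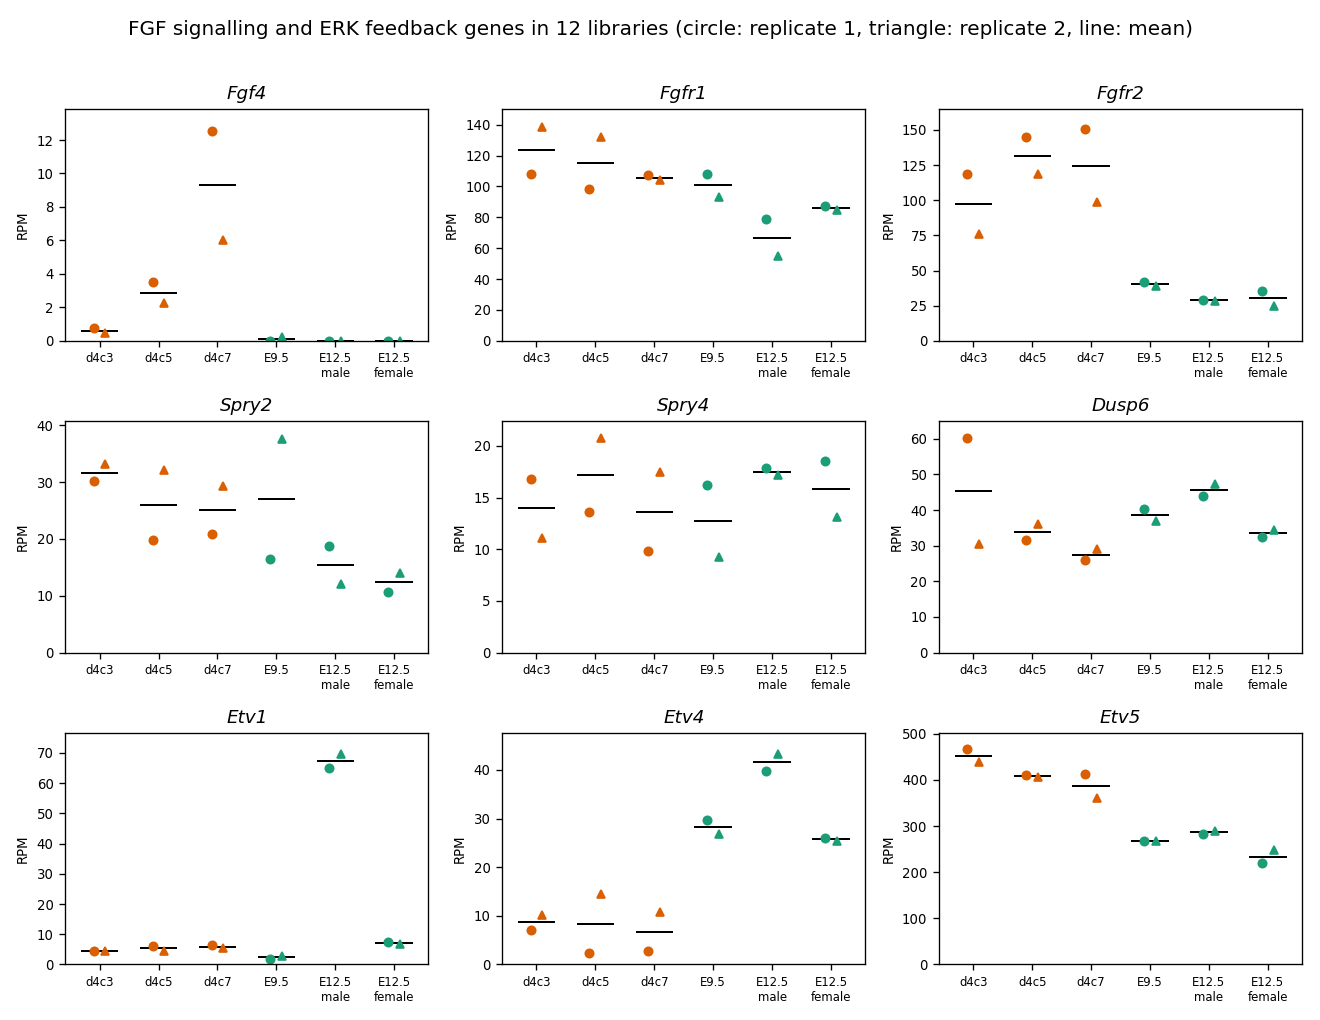
RPM (vertical axes, linear from 0, one panel per gene) of the 9 genes in each of the 12 libraries by group (horizontal axes), with circles for replicate 1, triangles for replicate 2, lines for group means, orange for culture and green for embryonic groups. Etv1 reaches 65.2 and 69.7 RPM in E12.5 males and at most 7.43 RPM elsewhere, and Fgf4 reaches 12.6 and 6.03 RPM in d4c7.

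Fgf4 (NCBI gene 14175, chr7:144861386-144865245, plus strand) encodes the FGF ligand that pluripotent cells of the early mouse embryo release. Its values in replicates 1 and 2 were 0.782 and 0.444 RPM in d4c3, 3.51 and 2.26 RPM in d4c5 and 12.6 and 6.03 RPM in d4c7. At E9.5 they were 0 and 0.236 RPM, and all 4 libraries of E12.5 were listed at 0. The 3 culture groups did not overlap each other. These are few reads: the steps of the values put them at 2 and 1 reads in d4c3, at 9 and 5 in d4c5 and at 32 and 35 in d4c7, and at 1 read in E9.5 replicate 2. Summed over replicates, 67 reads in d4c7 against 3 in d4c3 gave a ratio of 12.9, with a 95% counting interval of 4.22 to 64. The interval covers counting error only and leaves out the spread between replicates. It also leaves out amplification: reads were not counted by molecular identifier.

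From d4c3 to d4c7 the Fgf4 level rose by 2.61 ± 0.41 (log2, SE; limma adjusted p = 0.00456), with both d4c7 libraries above both d4c3 libraries. Fgf4 entered the test only because the d4c7 libraries reached the minimum of 5 RPM, so it could be tested only as a gene high in d4c7. Without any 1 of these 4 libraries the difference stayed between 2.13 and 3.08 on the log2 scale. The minimum was not applied again in these fits, and without either d4c7 library Fgf4 would not have met it. The call was lost with the spread estimated from the culture libraries alone (limma adjusted p = 0.119). It was also lost with these groups alone (adjusted p = 0.22), where no gene of the table was called. The difference between d4c5 and d4c3, 1.26 ± 0.41, did not pass the threshold (adjusted p = 0.357). The E12.5 groups, both listed at 0, give no fold.

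Other ligand genes were scarce in all groups. Of 18 further FGF genes, all had a row and 1, Fgf5, reached the minimum for testing. Fgf5 marks the epiblast after implantation. It stood at 5.09 and 1.82 RPM in d4c3, 3.15 and 3.61 RPM in d4c5, and 1.23 and 3.80 RPM in d4c7. Its embryonic values were 6.65 and 8.02 RPM at E9.5, 7.19 and 6.07 RPM in E12.5 males and 2.46 and 2.03 RPM in E12.5 females. The female groups were below E9.5 in both libraries, by a log2 change of -1.36 ± 0.43 (adjusted p = 0.0239), and the call was lost without any 1 of the 4 libraries (adjusted p of 0.0701 and 0.111 without female replicates 1 and 2, and of 0.0761 and 0.131 without E9.5 replicates 1 and 2). Fgf2, Fgf16 and Fgf21 were listed at 0 in all 12 libraries. Fgf8, which patterns the early embryo, was listed at 0 in all 6 culture libraries and reached 1.56 RPM in an E12.5 male library.

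Fgfr2 (NCBI gene 14183, chr7:130162451-130266808, minus strand) encodes a receptor for FGF ligands. Its values were 119 and 75.9 RPM in d4c3, 145 and 118 RPM in d4c5 and 151 and 98.6 RPM in d4c7. In the embryonic groups they were 41.5 and 39.2 RPM at E9.5, 29.4 and 28.6 RPM in E12.5 males and 35.5 and 24.9 RPM in E12.5 females. Every culture library lay above every embryonic library, and replicate 1 was the higher of each culture pair. The 3 culture groups overlapped, and so did the groups of the 2 sexes. The level was 1.21 ± 0.24 (log2) higher in d4c3 than at E9.5 (adjusted p = 0.00214) and 1.78 ± 0.14 higher in the mean of the culture groups than in the mean of the embryonic groups (adjusted p = 2.12e-07). Both calls were kept without any 1 library. From E9.5 to E12.5 the differences of -0.46 ± 0.24 in males (adjusted p = 0.141) and -0.43 ± 0.24 in females (adjusted p = 0.173) did not pass.

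Fgfr1 (NCBI gene 14182, chr8:25518759-25575718, plus strand), the receptor through which Fgf4 acts in the mouse epiblast, varied much less. Its values were 108 and 139 RPM in d4c3, 98.6 and 132 RPM in d4c5 and 107 and 104 RPM in d4c7. They were 108 and 93.3 RPM at E9.5, 78.9 and 54.8 RPM in E12.5 males and 87.1 and 84.5 RPM in E12.5 females. The culture groups overlapped each other and d4c7 overlapped E9.5, while E12.5 males lay below all other groups. The level fell from E9.5 to E12.5 males by 0.60 ± 0.19 on the log2 scale (adjusted p = 0.0204). This call was lost without E9.5 replicate 1 (adjusted p = 0.157), E9.5 replicate 2 (0.0537) or male replicate 2 (0.24). The mean of the culture groups was 0.46 ± 0.11 above that of the embryonic groups (adjusted p = 0.00253), although the libraries overlapped. An antisense gene, Gm16159, overlaps Fgfr1, and the sources used here do not state that reads were counted by strand.

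Among the feedback inhibitors, Spry2 (NCBI gene 24064, chr14:105891947-105896819, minus strand) encodes a Sprouty protein that restrains signalling from FGF receptors to ERK. Its values were 30.1 and 33.3 RPM in d4c3, 19.9 and 32.1 RPM in d4c5 and 20.8 and 29.3 RPM in d4c7. They were 16.5 and 37.5 RPM at E9.5, 18.8 and 12.0 RPM in E12.5 males and 10.6 and 14.1 RPM in E12.5 females. The E9.5 replicates differed by more than any group means did within culture, and the range at E9.5 held every culture library and 1 male library. In females the level was lower than at E9.5 by a log2 change of -0.97 ± 0.36 (adjusted p = 0.0443). That call was lost without E9.5 replicate 2 (adjusted p = 0.466), female replicate 1 (0.218) or female replicate 2 (0.0773). The mean of the culture groups was 0.67 ± 0.21 above that of the embryonic groups (adjusted p = 0.0137), and this call was lost without E9.5 replicate 1 (0.0564).

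Spry4 (NCBI gene 24066), which encodes another Sprouty protein, had the smallest ratio between highest and lowest group mean, 1.37, of the 8 genes for which the ratio could be formed. Its 12 libraries ran from 9.27 to 20.8 RPM with a median of 16.5 RPM, and its group means ran from 12.7 ± 4.91 RPM (SD, n = 2) at E9.5 to 17.5 ± 0.465 RPM in E12.5 males. Groups next to each other in that order all overlapped. No comparison called Spry4, and its differences lay between -0.16 and 0.48 on the log2 scale. The miscellaneous RNA genes Gm27369 and Gm27804 overlap Spry4 on the other strand.

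Dusp6 (NCBI gene 67603, chr10:99263231-99267489, plus strand) stood at 60.2 and 30.6 RPM in d4c3, 31.6 and 36.1 RPM in d4c5 and 25.9 and 29.0 RPM in d4c7. It stood at 40.4 and 36.8 RPM at E9.5, 44.1 and 47.3 RPM in E12.5 males and 32.4 and 34.4 RPM in E12.5 females. The 2 libraries of d4c3 lay further apart than the group means, with replicate 1 the highest of all 12 libraries. No comparison called Dusp6. Its largest difference, -0.63 ± 0.25 from d4c3 to d4c7 (adjusted p = 0.21), passed the threshold without d4c3 replicate 2 (-1.11, adjusted p = 0.0266), which leaves the high replicate 1 as the only d4c3 library.

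The 3 genes of the PEA3 family did not move together. Etv1 (NCBI gene 14009, chr12:38780082-38870483, plus strand) stood at 4.30 and 4.44 RPM in d4c3, 6.23 and 4.52 RPM in d4c5 and 6.28 and 5.52 RPM in d4c7. It stood at 1.84 and 2.83 RPM at E9.5, 65.2 and 69.7 RPM in E12.5 males and 7.43 and 6.79 RPM in E12.5 females. E12.5 males lay above every other library, and E9.5 lay below every other library. From E9.5 the level rose by 4.38 ± 0.29 (log2) in males (adjusted p = 1.79e-07) and by 1.30 ± 0.29 in females (adjusted p = 0.00357). Between the sexes the female level was lower by a log2 change of -3.08 ± 0.29 (adjusted p = 1.95e-05). All 3 calls were kept without any 1 of their libraries. Of 8 gonadal somatic markers, which a sort of gonads could bring along, 7 were above 0 in E12.5 males with a sum of 10.5 to 16.6 RPM, and 6 in females with a sum of 5.46 to 9.81 RPM. Of the genes of Sertoli cells on that list, Amh was at 0 in all E12.5 libraries, and Sox9 stood at 1.25 and 1.81 RPM in males and at 0 in both female libraries (female minus male -1.33, adjusted p = 0.0354, a gene that passed the filter only through E9.5). Gata4 stood at 4.38 and 1.81 RPM and Wt1 at 1.25 and 2.41 RPM in males, against 0.606 and 1.76 RPM and 0.606 and 0.754 RPM in females. The part of such cells in the Etv1 difference was not tested. The mean of the culture groups was below that of the embryonic groups by a log2 change of -0.99 ± 0.17 (adjusted p = 0.000244), although d4c3 lay above E9.5 and the libraries overlapped.

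Etv4 (NCBI gene 18612, chr11:101769747-101785310, minus strand) stood at 7.04 and 10.2 RPM in d4c3, 2.34 and 14.5 RPM in d4c5 and 2.75 and 10.7 RPM in d4c7. It stood at 29.8 and 26.9 RPM at E9.5, 39.7 and 43.4 RPM in E12.5 males and 26.1 and 25.4 RPM in E12.5 females. Every culture library lay below every embryonic library, and replicates 1 of d4c5 and d4c7 lay far below replicates 2. The mean of the culture groups was lower by a log2 change of -2.07 ± 0.33 (adjusted p = 0.000141), a call kept without any 1 library. The difference between d4c3 and E9.5, -1.63 ± 0.57, missed the threshold (adjusted p = 0.0544), and passed it with a pseudocount of 5 (0.0209), with the median log ratio of each library set to 0 (0.0384), with only the groups compared (0.000875) and with a replicate block (0.0215). E12.5 males and females differed by -0.67 ± 0.57 (adjusted p = 0.508), a difference that passed where the spread came from the embryonic libraries alone (adjusted p = 0.0127). So did the difference of 0.54 ± 0.57 between E12.5 males and E9.5 (adjusted p = 0.494, and 0.0182 with the embryonic libraries alone). The embryonic replicates of Etv4 lay much closer together than the culture replicates that enter the shared spread.

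Etv5 (NCBI gene 104156, chr16:22381313-22439570, minus strand) stood at 466 and 439 RPM in d4c3, 410 and 406 RPM in d4c5 and 413 and 360 RPM in d4c7. It stood at 268 RPM in both libraries of E9.5, at 283 and 290 RPM in E12.5 males and at 219 and 247 RPM in E12.5 females. Every culture library lay above every embryonic library, in the opposite direction to Etv4. The level was 0.75 ± 0.10 (log2) higher in d4c3 than at E9.5 (adjusted p = 0.000125) and 0.66 ± 0.06 higher in culture than in embryo as a whole (adjusted p = 7.44e-07), and both calls were kept without any 1 library. Within culture the d4c7 libraries lay below both d4c3 libraries, by -0.23 ± 0.10, which did not pass (adjusted p = 0.278). Females lay below males by -0.29 ± 0.10, which did not pass either (adjusted p = 0.0766), though it did with the embryonic libraries alone (adjusted p = 0.0158).

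Counted over the 9 genes, 1 was called between d4c7 and d4c3 (Fgf4), where 2.75% of all tested genes were called, 1.67% as higher and 1.08% as lower. None was called between d4c5 and d4c3 by limma, where 0.0829% of all genes, 9 in number, were called. At an unadjusted p under 0.05 these were 1 of the 9 (Fgf4) and 967 of all genes. From E9.5 to E12.5, 2 of 9 were called in males (Etv1 higher and Fgfr1 lower) against 37.7% of all genes (20.0% higher and 17.6% lower), and 2 of 9 in females (Etv1 higher and Spry2 lower) against 37.5% (20.4% higher and 17.1% lower). Between females and males 1 of 9 was called (Etv1, lower) against 11.9% (6.68% higher and 5.27% lower). Between d4c3 and E9.5, 2 of 9 were called (Fgfr2 and Etv5, both higher) against 23.7% (13.4% higher and 10.3% lower).

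Between all culture and all embryonic groups 7 of 9 were called, 5 higher (Fgf4, Fgfr1, Fgfr2, Spry2 and Etv5) and 2 lower (Etv1 and Etv4), against 54.5% of all genes (27.7% higher and 26.8% lower). The count was also 7 without the E9.5 libraries, a comparison added after the data had been seen. In 4 of the 9 (Fgf4, Fgfr2, Etv4 and Etv5) no culture library overlapped an embryonic one, as in 15.5% of all genes. The Fgf4 libraries nearest to each other, in d4c3 and E9.5, held 1 read each. Fgf4, which passed the filter only through d4c7, could be counted only as a gene high in culture, and without it 6 of 8 were called and 3 of 8 did not overlap. The median difference over the 9 genes was 0.46 on the log2 scale, beside -0.01 over all tested genes. In the stage comparisons it was 0.09 in males and -0.20 in females, beside 0.05 and 0.04 over all genes. The embryonic comparisons share the E9.5 libraries.

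**Figure D2:**
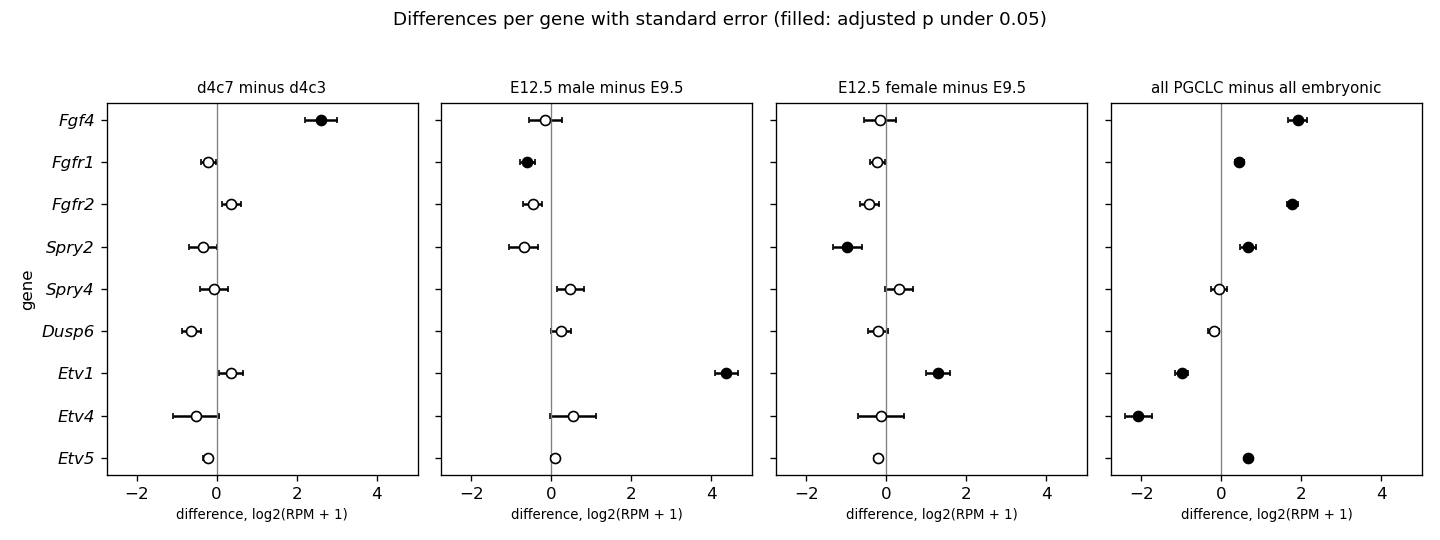
Difference in log2(RPM + 1) (horizontal axes) of the 9 genes (vertical axis) in 4 comparisons, with bars for the standard error from the model and filled circles for an adjusted p under 0.05. Etv1 stands at 4.38 in E12.5 males against E9.5, and Fgf4 at 2.61 in d4c7 against d4c3.

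Other genes of the pathway were followed in 6 lists with 83 genes: 81 had a row, and 52 passed the filter. In these 52, 2 were called higher and 0 lower between d4c7 and d4c3 (2.75% of all genes called), and none between d4c5 and d4c3 (0.0829%). From E9.5 to E12.5, 10 were higher and 11 lower in males, where 37.7% of all genes were called, and 10 higher and 13 lower in females, where 37.5% were. Between females and males 5 were higher and 4 lower (11.9% of all genes called). Between d4c3 and E9.5, 9 were higher and 10 lower (23.7%), and 14 were higher and 15 lower between all culture and all embryonic groups (54.5%). Counts near the share over all genes show nothing particular to the pathway. The count between d4c3 and E9.5 stood above its share. It includes Jun, Myc and Pdgfra, which passed the filter only through E9.5, and whether it is particular to the pathway was not tested. The genes of these lists are described by role.

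Among FGF receptors and co-receptors, 5 of 9 genes were tested. Fgfr3, another FGF receptor, stood at 33.7 and 31.4 RPM in E12.5 females, at 6.25 and 6.92 RPM in males and at 7.35 and 7.78 RPM at E9.5. The culture libraries lay between 5.20 and 7.07 RPM, so that only females stood apart. The female level was 1.97 ± 0.27 (log2) above E9.5 (adjusted p = 0.000103) and 2.15 ± 0.27 above males (adjusted p = 0.000211), both kept without any 1 library. Sdc4 encodes syndecan-4, a heparan sulphate proteoglycan that helps FGF bind its receptor. It stood at 13.3 ± 1.17 RPM (SD, n = 2) at E9.5, at 114 and 94.8 RPM in males and at 42.1 and 35.5 RPM in females. It rose from E9.5 by 2.88 ± 0.19 in males (adjusted p = 1.79e-07) and by 1.47 ± 0.19 in females (adjusted p = 7.13e-05), and females were lower than males by a log2 change of -1.41 ± 0.19 (adjusted p = 0.0004). Fgfr3 and Sdc4 thus differed between the sexes in opposite directions.

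In culture, Sdc4 stood at 35.6 and 51.5 RPM in d4c3, 63.5 and 74.5 RPM in d4c5 and 77.0 and 85.4 RPM in d4c7. The rise of 0.91 ± 0.19 from d4c3 to d4c7 (adjusted p = 0.0248) was lost without d4c3 replicate 1 (adjusted p = 0.257). Gpc4, a glypican co-receptor, stood at 6.65 and 6.21 RPM in d4c3, 9.74 and 9.49 RPM in d4c5 and 18.5 and 18.1 RPM in d4c7. Its rise of 1.38 ± 0.34 (adjusted p = 0.0454) was lost without any 1 of the 4 libraries (adjusted p of 0.211 and 0.169 without d4c3 replicates 1 and 2, and of 0.115 and 0.063 without d4c7 replicates 1 and 2). These were the 2 genes of the 6 lists called in that comparison.

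Of the negative regulators outside the 9 genes, 12 of 15 were tested. In E12.5 males 4 were higher than at E9.5 and 0 lower (20.0% and 17.6% of all genes), and in females 3 were higher and 2 lower (20.4% and 17.1%), which is near the share over all genes. Dusp5 encodes a phosphatase that acts on ERK in the nucleus. It stood at 70.6 and 59.6 RPM in females, 14.1 and 16.9 RPM in males and 21.3 and 17.5 RPM at E9.5, and was 2.01 ± 0.27 (log2) higher in females than in males (adjusted p = 0.000341). Dusp9, an ERK phosphatase of the cytoplasm encoded on the X chromosome, stood at 168 and 172 RPM in females, 56.8 and 63.8 RPM in males and 35.7 and 46.9 RPM at E9.5, and was 1.48 ± 0.23 higher in females (adjusted p = 0.00107). Dusp4, a nuclear phosphatase, went the other way, with 96.1 and 112 RPM in females against 186 and 181 RPM in males (-0.82 ± 0.17, adjusted p = 0.00686). The Dusp4 call was lost without male replicate 1 (adjusted p = 0.0596), male replicate 2 (0.0509) or female replicate 1 (0.0788), and those of Dusp5 and Dusp9 were kept without any 1 library.

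**Figure D3:**
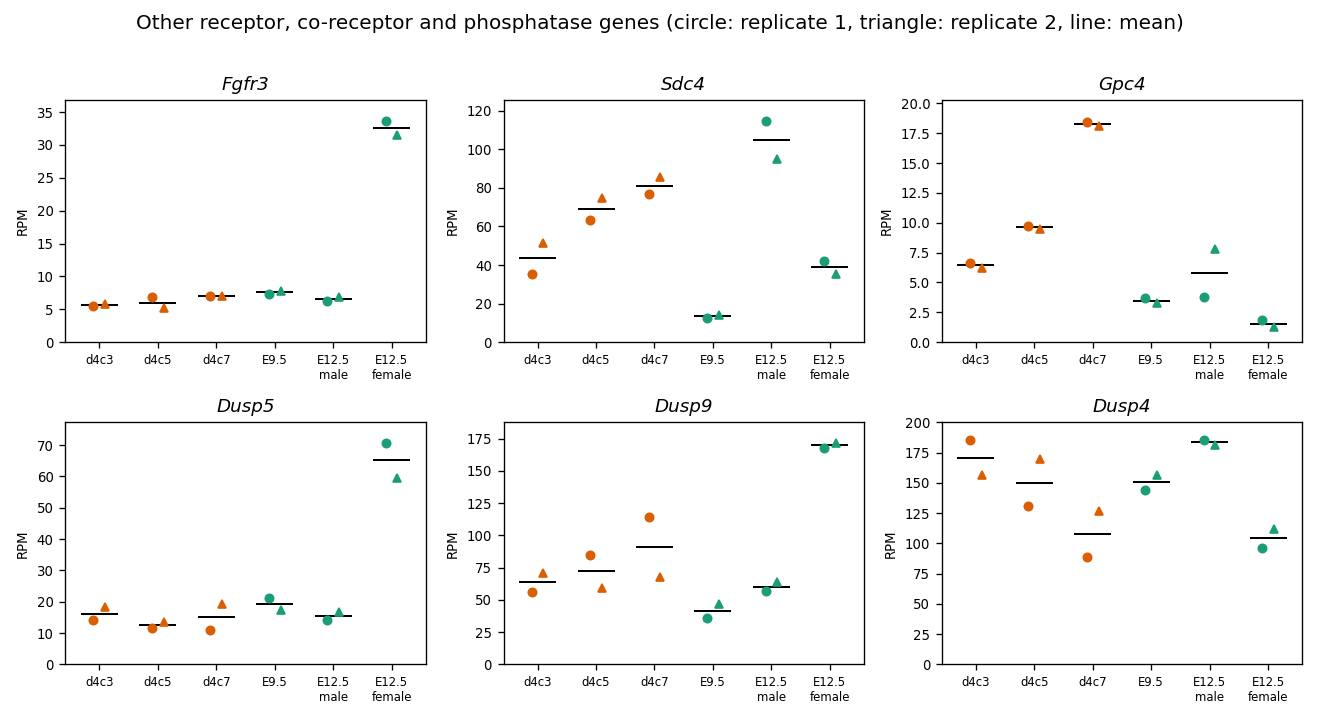
RPM (vertical axes, linear from 0, one panel per gene) of 6 other receptor, co-receptor and phosphatase genes in each library by group (horizontal axes), with circles for replicate 1, triangles for replicate 2 and lines for group means. Females of E12.5 stand apart for Fgfr3 (33.7 and 31.4 RPM), Dusp5 (70.6 and 59.6 RPM) and Dusp9 (168 and 172 RPM), and males for Sdc4 (114 and 94.8 RPM).

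Between culture and embryo as a whole, 2 of these 12 regulators were higher and 4 lower. Spred1 and Spred2, which encode inhibitors of RAS signalling related to the Sprouty proteins, moved apart: Spred1 was lower in culture by a log2 change of -1.04 ± 0.15 (adjusted p = 4.35e-05) and Spred2 was higher by 0.86 ± 0.14 (adjusted p = 0.000148). Of the 18 tested genes of the relay from receptor to ERK, 8 were higher in culture and 3 lower, where 27.7% of all genes were higher and 26.8% lower. Map2k1, which encodes MEK1, had group means of 247 to 267 RPM in culture and 116 to 175 RPM in embryonic groups (0.93 ± 0.07, adjusted p = 2.85e-07). Gab1, an adaptor downstream of receptor tyrosine kinases, had group means of 31.5 to 69.7 RPM in culture and 12.1 to 24.4 RPM in embryonic groups (1.41 ± 0.19, adjusted p = 2.65e-05). Mapk3, which encodes ERK1, was lower in culture by a log2 change of -1.19 ± 0.19 (adjusted p = 0.00015), with replicates 1 of d4c5 and d4c7 at 21.4 and 17.7 RPM and replicates 2 at 42.5 and 42.7 RPM. These 5 calls were kept without any 1 library. No gene of the relay was called by limma between E12.5 females and males, where 11.9% of all genes were. None was called in d4c7 or d4c5 against d4c3 either, where 2.75% and 0.0829% of all genes were.

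Among genes that ERK induces in many cell types, 6 of 10 tested were lower at E12.5 than at E9.5 in each sex, where 17.6% of all genes were lower in males and 17.1% in females. Jun and Myc are among the 6 and passed the filter only through the E9.5 libraries, so they could be tested only as genes high at E9.5. Of the other 8 tested, 4 were lower in each sex. Of 14 on the list 10 were tested, and 6 were lower and 0 higher in males, and their median log2 change was -0.91, beside 0.05 over all genes. In females 6 were lower and 1 higher, with a median of -0.69 beside 0.04. Both medians include Jun and Myc. Ier3, an immediate early gene, stood at 27.9 and 37.7 RPM at E9.5. It stood at 4.38 and 6.32 RPM in E12.5 males and 6.37 and 4.02 RPM in E12.5 females, changes of -2.42 ± 0.42 (adjusted p = 0.000516) and -2.46 ± 0.42 (adjusted p = 0.000486). Jun, which encodes a subunit of the factor AP-1, stood at 9.97 and 7.89 RPM at E9.5, 1.99 and 0.941 RPM in males and 0.367 and 0.0251 RPM in females, changes of -2.04 ± 0.47 (adjusted p = 0.00416) and -3.06 ± 0.47 (adjusted p = 0.000245). The female values lie under the limit of 3 reads, so the size of that change depends on the pseudocount. Fos, the partner of Jun in AP-1, was the gene that was higher in females, by 1.86 ± 0.54 (adjusted p = 0.0149), a call lost without E9.5 replicate 1 (0.161) or female replicate 2 (0.105).

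Ccnd1, which encodes cyclin D1, stood at 32.0 and 31.6 RPM at E9.5, 3.13 and 4.82 RPM in males and 18.2 and 18.9 RPM in females. The culture libraries lay between 0 and 2.36 RPM. It fell from E9.5 to males by 2.74 ± 0.46 on the log2 scale (adjusted p = 0.000431) and was lower in d4c3 than at E9.5 by a log2 change of -3.99 ± 0.46 (adjusted p = 3.66e-05). In d4c3 replicate 2 Ccnd1 stood at 0.444 RPM, under the limit of 3 reads, so the size of the d4c3 change depends on the pseudocount. Females were 1.99 ± 0.46 above males (adjusted p = 0.0124), a call lost without male replicate 1 (0.105), female replicate 1 (0.0734) or female replicate 2 (0.082). Between d4c3 and E9.5, 4 of the 10 targets were lower and 0 higher, where 10.3% of all genes were lower and 13.4% higher. Of the 8 other than Jun and Myc 2 were lower. The blood and stromal marker sums were also highest at E9.5, by the values given above, and their part in these differences was not tested. Between all culture and all embryonic groups 2 of 10 were lower and 0 higher, where 26.8% of all genes were lower and 27.7% higher. The median was -0.01, beside -0.01 over all genes.

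**Figure D4:**
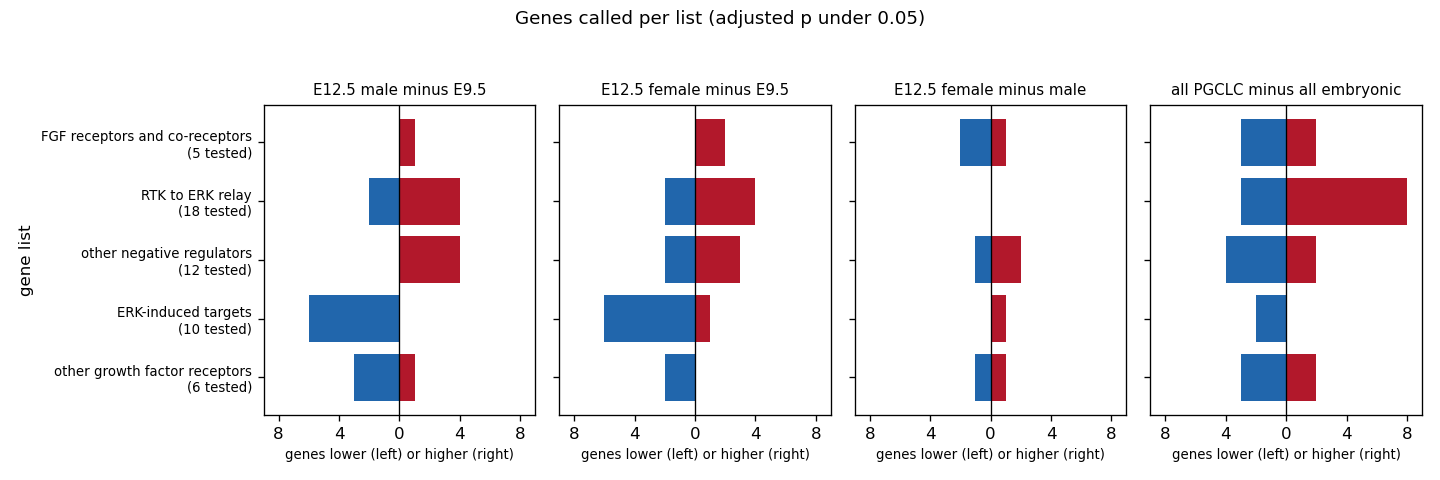
Number of genes called lower (blue, to the left) and higher (red, to the right) at an adjusted p under 0.05 in each of 5 pathway lists (vertical axis), in 4 comparisons. Of 10 tested ERK-induced targets 6 were lower at E12.5 than at E9.5 in each sex and 1 was higher in females. Among all genes 17.6% were lower in males, and 17.1% were lower and 20.4% higher in females. Jun and Myc, among the 6, passed the filter only through E9.5, and of the other 8 tested 4 were lower in each sex. Of 18 tested genes of the relay 8 were higher and 3 lower in culture (all genes: 27.7% and 26.8%).

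Receptors of other growth factors were tested for 6 of 8 genes. From E9.5 to E12.5, 1 was higher and 3 lower in males and 0 higher and 2 lower in females, and between culture and embryo 2 were higher and 3 lower, where 37.7%, 37.5% and 54.5% of all genes were called. Met, the receptor for hepatocyte growth factor, stood at 14.2 and 16.8 RPM in E12.5 females, 1.56 and 0 RPM in males and 5.51 and 7.55 RPM at E9.5, and was 3.37 ± 0.45 (log2) higher in females than in males (adjusted p = 0.000316). With male replicate 2 at 0, the size of that change depends on the pseudocount, and it ran from 2.69 to 4.04 without 1 library. Erbb3, a receptor of the epidermal growth factor receptor family, stood at 12.4 and 12.8 RPM in females, 51.9 and 34.0 RPM in males and 11.8 and 11.3 RPM at E9.5, and was lower in females by a log2 change of -1.66 ± 0.24 (adjusted p = 0.000616). Both calls were kept without any 1 library. Pdgfra, a receptor of mesenchymal cells and also 1 of the stromal markers, stood at 16.5 and 15.6 RPM at E9.5 and at most at 1.26 RPM in any other library, and passed the filter only through E9.5. Kit, the receptor for stem cell factor on which germ cells depend, was called in no comparison, with group means of 205 to 247 RPM.

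Over the 12 libraries, the tested genes whose log2(RPM + 1) was most like that of Etv1 were Mgst2 (Pearson r = 0.962), Polr2a (0.954) and Aldh1a1 (0.95). For Fgfr2 they were Scpep1 (0.981), Ccdc58 (0.981) and Rmnd5a (0.98), for Fgf4 Serping1 (0.955), Arhgap9 (0.95) and Apaf1 (0.944), for Etv4 Chd4 (0.976), Ccdc61 (0.969) and Csnk1g2 (0.96), and for Etv5 Eif2a (0.969), Slc3a2 (0.968) and Max (0.964). The likest genes had a lower r for Spry2 (Strap, 0.924), Spry4 (Ppp1cb, 0.889), Dusp6 (Bpnt1, 0.879) and Fgfr1 (Ndufaf3, 0.938). The 12 points fall into 6 groups and share their group means, so these values describe likeness over groups. By ranks, Serping1 was again first for Fgf4, but tied with Ctsb and Gnal (Spearman r = 0.957). For Fgfr2, Etv1, Etv4 and Etv5 the likest genes by ranks were others, such as Chmp4b, Trap1a, Sox4 and Maf1 in that order. Among the 9 genes themselves, r was 0.882 between Fgfr2 and Etv5 and -0.91 between Fgfr2 and Etv4.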

How the data were processed

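The authors deposited a table of RPM for 12 libraries, values scaled by the authors to a library's reads in genes, which was checked on the column sums. Tools in the submitters' processing notes, with no step given, are TopHat 1.4.1, cutadapt 1.3 and Cufflinks 2.2.0, and the build is mm10. The table holds 26218 gene rows and 92 spike-in rows, which were left out. Spike-in values summed to 0 to 72.7 RPM in culture libraries, 628 to 1372 RPM at E9.5 and 12107 to 16494 RPM at E12.5. No column of per-sample values was left unused.

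Reads were estimated from the smallest step of low values. Of the values up to 20 reads, 81.8% to 87.4% per library lay within 0.1 read of a whole number. Whole reads were therefore not recovered, and count tests were not used. Only the counting interval of Fgf4 was taken from estimated reads. The floor is 3 reads and covers counting error only.

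Values were taken as log2(RPM + 1). Genes with at least 5 RPM in at least 2 libraries, 10856 in number, entered 1 limma 3.58.1 model (R 4.3.3; lmFit, contrasts.fit, eBayes with trend) with a mean for each of 6 groups, 6 residual and 8.02 prior degrees of freedom. P-values were adjusted by Benjamini and Hochberg over all tested genes, in 7 comparisons. The model was tested on simulated data. The root mean square difference between replicates ran from 0.329 (E9.5) to 0.564 (d4c7), in log2 units.

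The 9 genes, the lists and the markers were chosen with earlier results of these data known. All 9 genes are described. Of other lists, up to 3 called genes per comparison with the largest change were eligible for naming, and not all are described. Fgf2, Fgf16, Fgf21, Fgf8 and Kit fall outside that rule and were chosen after their values were seen. Positions and sequences are RefSeq's for GRCm38.p6. Alternatives were other pseudocounts, filters, centring, no trend, only the groups compared, a replicate block and leaving out each library. The filter was not applied again when a library was left out.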

Additional observations from a re-analysis of the deposited data

Results flagged for a closer look

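Of the genes named here, 10 changed differently from E9.5 to E12.5 in the 2 sexes, by the direct limma test of female against male libraries, which equals the difference between their stage effects because both are taken against the same E9.5 libraries. Etv1 differed by -3.08 (log2, female minus male; adjusted p = 1.95e-05), with both male libraries above both female libraries.

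Among co-receptors and receptors, Fgfr3 differed by 2.15 (adjusted p = 0.000211), Sdc4 by -1.41 (adjusted p = 0.0004) and Gpc4 by -1.36 (adjusted p = 0.0178). The Gpc4 call was lost without male replicate 2 (0.184), female replicate 1 (0.0543) or female replicate 2 (0.124). Among phosphatases, Dusp5 differed by 2.01 (adjusted p = 0.000341), Dusp9 by 1.48 (adjusted p = 0.00107) and Dusp4 by -0.82 (adjusted p = 0.00686), and the Dusp4 call was lost without 3 of the 4 libraries in turn. Ccnd1 differed by 1.99 (adjusted p = 0.0124), also lost without 3 of the 4 libraries in turn. Among other growth factor receptors, Met differed by 3.37 (adjusted p = 0.000316) and Erbb3 by -1.66 (adjusted p = 0.000616). The size for Met depends on the pseudocount, as male replicate 2 stood at 0. For all 10 genes the male and female libraries did not overlap, but the genes were picked by this same test, so this adds no support. The test called 11.9% of all tested genes.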

How the results depend on the processing

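Over the 9 genes and the named list genes, 1785 results under alternatives were computed, of which 1623 kept direction and side of the threshold, 124 lost a call, 16 gained one and 22 changed sign, all of these where a library was left out. The number of the 9 genes called between d4c7 and d4c3, 1, became 0 with a filter of 10 RPM, which removes Fgf4, and 0 with the culture libraries alone (added after the data had been seen) or with only the groups compared, and was 1 to 2 without each library. Between females and males it was 3 with the embryonic libraries alone (also added) and 2 with only the groups compared, against 1. In females against E9.5, 2 became 1 with no filter or no trend and was 1 to 2 without each library. In males against E9.5, 2 became 1 with no filter or no trend and 4 with only the groups compared, and was 1 to 2 without each library. The cause was not tested. Between culture and embryo the count was 6 to 8.

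Replicate numbers name no shared day or animal. The deviations of same-numbered libraries correlated by 0.116 to 0.455 between culture groups and by -0.0431 to 0.0293 between other groups. With a replicate block, the counts were 1, 0, 3, 2, 1, 3 and 7, in the order d4c7 and d4c5 against d4c3, males and females against E9.5, females against males, d4c3 against E9.5 and culture against embryo; Fgfr2 was then called in males (adjusted p = 0.0467) and Etv4 in d4c3 (0.0215).

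Signs changed without 1 library in the following ranges, none of them called in the full set. They were -0.324 to 0.63 (Dusp6), -0.238 to 0.896 (Spry2) and -0.23 to 0.515 (Spry4) in d4c3 against E9.5. In d4c5 against d4c3 they were -0.816 to 0.138 (Dusp6), -1.51 to 0.704 (Etv4), -0.312 to 0.109 (Fgfr1), -0.646 to 0.0184 (Spry2) and -0.00398 to 0.569 (Spry4). In d4c7 against d4c3 they were -1.34 to 0.3 (Etv4) and -0.44 to 0.329 (Spry4). In females against males they were -0.212 to 0.282 (Fgfr2), -0.578 to 0.0209 (Spry2) and -0.393 to 0.0765 (Spry4). For Spry4 they were also -0.174 to 0.0825 in culture against embryo and -0.0558 to 0.69 in females against E9.5.

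The number of all genes called moved by over 1.5 times in d4c7 against d4c3 (298; 103 with no filter, 184 with no trend, 1 with culture libraries alone, 0 with only the groups compared, 31 to 786 without each library). It did so too in d4c5 against d4c3 (9; 3 with no filter, 6 with no trend, 20 with centred medians, 22 with the block, 0 with culture libraries alone or only the groups compared, 2 to 26 without each library) and in females against males (1297; 2351 with the embryonic libraries alone, 538 to 567 without each library). In d4c3 against E9.5 (2574) and in males and females against E9.5 (4089 and 4069) it was 1321 to 1685, 2509 to 2842 and 2456 to 2782 without each library. Centring the median log ratio of each library at 0 moved the share of higher among called genes from 77.8% to 65% between d4c5 and d4c3. It moved that share from 53.2% to 47.8% in males and from 54.5% to 49.5% in females against E9.5 and from 50.9% to 49.4% in culture against embryo, so that lower calls became the majority, and it moved the median of all genes by at most 0.06 on the log2 scale. Low depth limits Fgf4 outside d4c5 and d4c7, and most other ligands, which lie at or near 3 reads there.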
